A study of Mus musculus with 8 samples.

Results

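Histamine in the brain is made by 1 enzyme, acts through a small family of receptors and is cleared by methylation and oxidation. The genes described here are Hdc, Hrh1, Hrh2, Hrh3, Hnmt and Maob, taken by symbol from the deposited gene count table; they are 6 of its 54532 genes, and all 6 passed the low-count filter. The set was built around Hdc, which was chosen by its low count in libraries labelled Nsun5-KO relative to WT, so its difference between genotypes is given as a description without a test. That choice rested on Hdc, but the set of members was made with earlier results of these data known.

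Bulk RNA sequencing was done on brain tissue of male mice aged 3 months, in 4 libraries labelled Nsun5-KO and 4 wild-type (WT) libraries. The protocol names 5 mice per genotype, all littermates, which received pentobarbital at 50 mg/kg before the brain was removed. The labels do not describe the Nsun5 allele. Nsun5 encodes an RNA methyltransferase that acts on the large ribosomal RNA, and the study asks about myelin and sleep in mice without it.

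Each library held 15642086 to 17829523 counts. Nsun5 itself had 83 to 124 counts where the label says Nsun5-KO and 82 to 109 counts in WT (log2 fold change 0.13, 95% interval -0.20 to 0.47), so this gene does not bear out the label and each direction below is that of the labelled libraries. WT replicates 1 and 2 stood apart on the first principal component, at -29.7 and -36.0, while the other 6 libraries lay between 1.75 and 23.8. Neuronal marker genes were abundant in all 8 libraries, with a summed level over 9 genes of 8221 to 8786 CPM (counts scaled to library size) in libraries labelled Nsun5-KO and 7342 to 7589 CPM in WT. The summed level of 7 oligodendrocyte genes was 4477 to 6154 CPM in libraries labelled Nsun5-KO and 6861 to 7478 CPM in WT. Whole brain is the tissue given for these data, yet the cerebellar genes Gabra6 and Pcp2 reached at most 1 and 4 counts in libraries labelled Nsun5-KO and at most 30 and 19 counts in WT.

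Histamine neurons sit in the tuberomammillary nucleus of the posterior hypothalamus and send axons to most of the brain, where they promote waking. Hdc, histidine decarboxylase, makes histamine from histidine in a single step and marks these neurons. The H1 receptor (Hrh1) couples to the Gq class of G proteins and is the target of sedating antihistamines, the H2 receptor (Hrh2) couples to Gs and raises cyclic AMP, and the H3 receptor (Hrh3) couples to Gi/o and restrains release of histamine and other transmitters from axon terminals. In the brain histamine is inactivated by histamine N-methyltransferase (Hnmt), and its methylated product is oxidised by monoamine oxidase B (Maob).

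The stretch of 250 bases upstream of an annotated start is shown for Hdc, the gene around which the set was built, and for Hrh1, a receptor gene that lay on the other side of WT. The sequences are from RefSeq on GRCm38.p6, the assembly behind mm10, are written 5′ to 3′ on the strand of the gene, and overlap no annotated exon of their gene in GENCODE M21. Capitals mark the GC box GGGCGG, searched on both strands with its reverse complement CCGCCC.
Hdc: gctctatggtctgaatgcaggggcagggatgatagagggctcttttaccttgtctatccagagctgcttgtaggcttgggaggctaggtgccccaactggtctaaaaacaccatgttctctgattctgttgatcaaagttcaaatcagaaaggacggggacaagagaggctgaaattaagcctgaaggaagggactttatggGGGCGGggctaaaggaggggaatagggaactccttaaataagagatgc
Hrh1: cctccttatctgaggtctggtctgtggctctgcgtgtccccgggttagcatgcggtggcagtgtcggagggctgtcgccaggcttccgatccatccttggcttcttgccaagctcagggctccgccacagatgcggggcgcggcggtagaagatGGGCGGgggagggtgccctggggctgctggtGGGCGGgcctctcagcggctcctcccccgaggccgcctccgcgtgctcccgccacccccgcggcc
The Hdc stretch lies within the span that the count table gives Hdc, since RefSeq places this start further in. It (chr2:126618679-126618928, minus strand) held 1 GC box and 48.8% G and C, and the Hrh1 stretch (chr6:114397686-114397935, plus strand) held 2 GC boxes and 71.2% G and C. Stretches at other Hrh1 starts, not printed, held 4, 0 and 0 GC boxes and 78.4%, 49.6% and 51.2% G and C. The median over 32851 such stretches was 52.4% G and C, and 32.7% of them held a GC box. Neither printed stretch held the TATA box TATAAA, the CAAT box CCAAT, the E-box CACGTG or the cyclic AMP response element TGACGTCA on either strand, found in 12.4%, 33.8%, 6.02% and 1.55% of all stretches in the order named. Matching by symbol found 5 of the 6 genes in the table, with Maob as the exception.

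None of the 5 histamine genes other than Hdc passed the test for a difference between genotypes. The edgeR quasi-likelihood test called 0 of these 5, against a background of 0 of 16062 genes tested (0%) at an adjusted p below 0.05; the smallest adjusted p of any gene was 0.178. At an unadjusted p below 0.05, 4 of these 5 genes stood out, 3 receptor genes higher and Maob lower, against 10.4% of all genes tested (5.3% higher, 5.05% lower). DESeq2 called 0.663% of its genes and none of these 5. The CPM values of the groups did not overlap in 3 of these 5 genes, beside 5.7% of all genes tested. Hrh1 and Hrh2 lay higher in this way, as did 2.99% of all genes, and Maob lower, as did 2.71%. Hdc did not overlap either, which its choice had fixed. The members were chosen with earlier results in view, so nothing about the set is read from these counts.

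Hdc (ENSMUSG00000027360, chromosome 2, 126593667 to 126619299, minus strand) had 14, 12, 16 and 28 counts in replicates 1 to 4 labelled Nsun5-KO, against 139, 77, 58 and 43 counts in WT replicates 1 to 4. As CPM this was 0.880, 0.709, 0.995 and 1.59 in libraries labelled Nsun5-KO and 8.08, 4.94, 3.51 and 2.44 in WT. Every library labelled Nsun5-KO thus lay under every WT library, and the WT libraries differed among themselves more than the others did. The mean was 1.04 ± 0.382 CPM in libraries labelled Nsun5-KO and 4.74 ± 2.45 CPM in WT (SD, n = 4 each), a log2 fold change of -2.17 (SE 0.39).

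Of the 16062 genes tested, 5 had a more negative fold change than Hdc, a rank that reflects how Hdc was chosen. The low counts limit its precision: the 70 counts summed over the libraries labelled Nsun5-KO have an exact 95% Poisson interval of 54.6 to 88.4, and the 317 counts in WT one of 283 to 354, which cover counting error only. The nearest pair of libraries was replicate 4 labelled Nsun5-KO with 28 counts (interval 18.6 to 40.5) and WT replicate 4 with 43 counts (31.1 to 57.9), and these intervals overlap. Without WT replicates 1 and 2, the fold change of Hdc was -1.50.

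**Figure D1:**
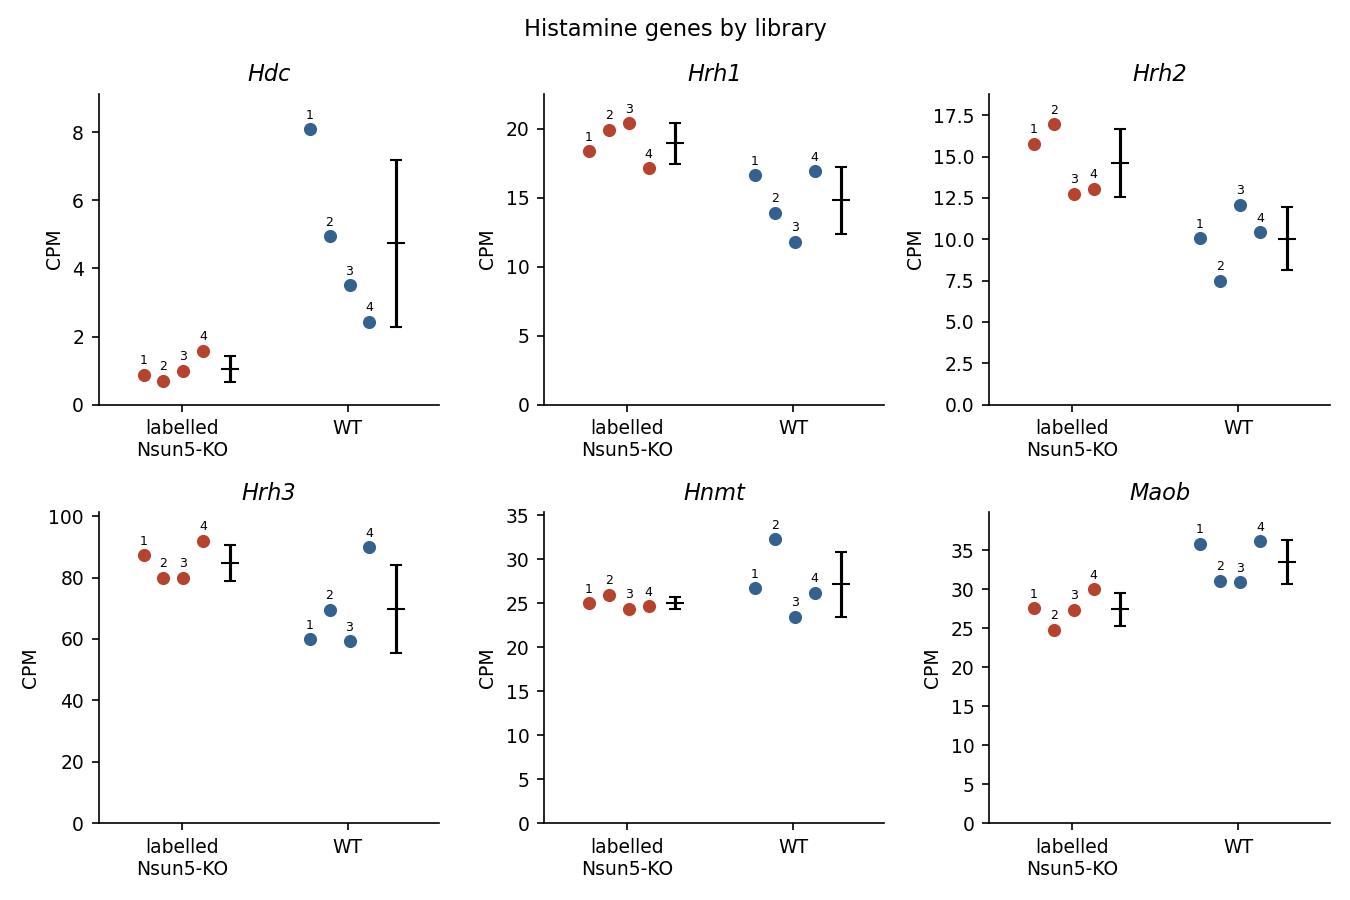
Expression of the 6 histamine genes in CPM (y axis, from 0) in each library, with libraries labelled Nsun5-KO on the left and WT on the right; points are libraries numbered by replicate, and the bar beside them is the mean with SD (n = 4 each). Hdc and Maob lay lower and Hrh1 and Hrh2 higher in all 4 libraries labelled Nsun5-KO than in any WT library, while the groups overlapped for Hrh3 and Hnmt.

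The summed level of a broad list of genes of the hypothalamus, where histamine neurons reside, was lower in the same libraries. Of a list of 26 hypothalamic genes 14 passed the low-count filter and 0 were called; some passed through their WT counts alone, so no tally or median of the 14 is given. The summed level of all 26 was 52.7, 63.5, 51.0 and 96.6 CPM in replicates 1 to 4 labelled Nsun5-KO, against 273.1, 265.2, 135.2 and 110.3 CPM in WT replicates 1 to 4. Nkx2-1, which patterns the ventral hypothalamus, had 7, 11, 9 and 26 counts in libraries labelled Nsun5-KO and 51, 66, 33 and 34 counts in WT. Its groups did not overlap, and neither did those of Gpr50 and Ecel1, which also lay lower. Ecel1 had 178, 174, 159 and 334 counts in libraries labelled Nsun5-KO and 486, 680, 336 and 438 in WT. Some other genes of the list, among them Pomc and Six3, overlapped between the groups. Pomc had 12, 23, 9 and 23 counts in libraries labelled Nsun5-KO and 15, 20, 26 and 22 in WT. Six3 had 181, 108, 43 and 348 counts in libraries labelled Nsun5-KO and 147, 402, 200 and 282 in WT. WT replicates 1 and 2 were highest for Hdc, for Nkx2-1 and for the summed list, and replicate 4 labelled Nsun5-KO was the highest of its group in each. A narrower list of 7 genes of the mammillary and posterior hypothalamus, of which 3 were tested and 0 called, overlapped between the groups. Its summed level was 1.95, 9.63, 0.373 and 7.04 CPM in replicates 1 to 4 labelled Nsun5-KO. In WT replicates 1 to 4 it was 13.1, 5.64, 1.57 and 4.25 CPM.

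Neuropeptides of the lateral hypothalamus, which borders the tuberomammillary nucleus, had most of their counts in WT replicates 1 and 2. Hcrt, the orexin precursor, had 1, 2, 14 and 0 counts in libraries labelled Nsun5-KO and 601, 166, 1 and 0 counts in WT. Pmch, the precursor of melanin-concentrating hormone, had 2, 5, 17 and 0 counts in libraries labelled Nsun5-KO, against 901, 281, 1 and 1 counts in WT. In WT replicates 3 and 4, where both neuropeptide genes were at 0 or 1 count, Hdc still had 58 and 43 counts. Hcrt and Pmch were under the low-count filter.

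Set against the summed hypothalamic list, the groups overlapped for Hdc. Per 1000 CPM of that list Hdc stood at 16.7, 11.2, 19.5 and 16.5 CPM in libraries labelled Nsun5-KO and at 29.6, 18.6, 25.9 and 22.1 CPM in WT. The means were 15.96 ± 3.48 in libraries labelled Nsun5-KO and 24.1 ± 4.75 in WT (SD, n = 4 each), a log2 ratio of -0.59. Neuropeptide genes carried part of that sum in single WT libraries, so the scale is not the amount of hypothalamus alone. Pmch and Hcrt stood at 52.4 and 34.9 CPM in WT replicate 1. Avp stood at 42.4 CPM in WT replicate 3 and at 0.227 to 2.33 CPM in libraries labelled Nsun5-KO. Per 1000 CPM of a list of 8 genes of tuberomammillary neurons, described next, Hdc stood at 9.06, 7.06, 11.7 and 16.4 CPM in libraries labelled Nsun5-KO and at 64.98, 50.6, 43.4 and 27.7 CPM in WT. On that scale the groups did not overlap, and the log2 ratio was -2.08, near the unscaled log2 fold change of -2.17. Itm2a was the largest part of that sum in each library, at 49.4 to 69.3 CPM in libraries labelled Nsun5-KO and 50.2 to 60.1 CPM in WT. This scale is therefore no measure of histamine neurons alone. Both scalings were added after the data were seen and are a description. In bulk tissue fewer histamine neurons, less Hdc RNA in each and less hypothalamic tissue in the sample cannot be told apart.

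Other genes of tuberomammillary neurons, most of which are also used elsewhere in the brain, lay on both sides of WT. Of a list of 8 genes 7 were tested, 4 above and 3 below WT, and the median of their log2 fold changes was 0.01. Their summed level, with Gal included, was 97.2, 100.4, 85.2 and 96.8 CPM in libraries labelled Nsun5-KO and 124.4, 97.7, 80.9 and 88.0 CPM in WT. Slc18a2, the vesicular transporter that loads monoamines and histamine, had 4.78, 5.90, 5.97 and 9.65 CPM in libraries labelled Nsun5-KO against 35.1, 9.94, 4.66 and 4.37 CPM in WT. Its lower mean rested on WT replicate 1: the log2 fold change of -1.04 (SE 0.74, edgeR adjusted p = 0.684) became 0.061 once that library was left out.

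Hcrtr2, the orexin receptor through which orexin excites histamine neurons, had 5.29 ± 0.857 CPM in libraries labelled Nsun5-KO and 4.60 ± 0.700 CPM in WT (log2 fold change 0.20, edgeR adjusted p = 0.749). Gal, a neuropeptide gene of hypothalamic neurons, had 7, 4, 4 and 5 counts in libraries labelled Nsun5-KO and 25, 37, 21 and 9 counts in WT. Its groups did not overlap either, and it was under the low-count filter; edgeR without that filter, which called 0.235% of 28997 genes, called it lower (log2 fold change -2.18, adjusted p = 0.029). Hcrtr2 and Gal were named after their values were seen.

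**Figure D2:**
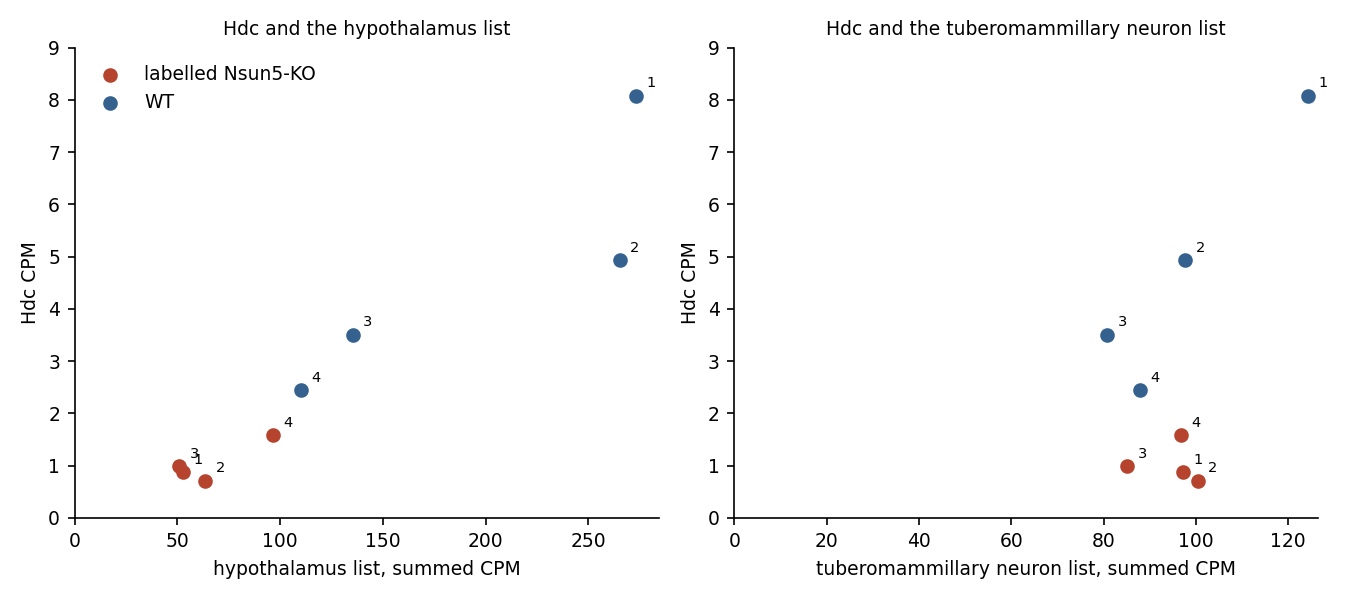
Hdc in CPM (y axis) against the summed CPM of the hypothalamus list (left) and of the tuberomammillary neuron list (right), 1 point per library, numbered by replicate, red for libraries labelled Nsun5-KO and blue for WT. In the left panel Hdc was highest in the WT libraries with the highest hypothalamic sums (273.1 and 265.2 CPM), and in the right panel the sums of the groups overlapped.

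Marker genes of mast cells, another source of Hdc RNA that brain tissue can hold, were hardly represented. Of 10 mast cell genes, 6 had 0 counts in all 8 libraries, among them the protease genes Mcpt4, Tpsb2 and Tpsab1 and the receptor gene Fcer1a. Cpa3 (mast cell carboxypeptidase) reached 3 counts in 1 library labelled Nsun5-KO and 1 count in 1 WT library, and Cma1 and Ms4a2 reached 1 and 2 counts. The summed list, 2.42 to 4.88 CPM in libraries labelled Nsun5-KO and 3.55 to 4.48 CPM in WT, was nearly all Gata2, a transcription factor that neurons use too. Defining mast cell genes were thus at or near 0 in the libraries that gave Hdc. The part of mast cells in the Hdc counts was not tested.

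Among the receptors, all 3 genes lay above WT. Hrh2 (ENSMUSG00000034987, chromosome 13, 54192129 to 54236180, plus strand) had 15.8, 16.9, 12.7 and 13.05 CPM in replicates 1 to 4 labelled Nsun5-KO, against 10.1, 7.503, 12.1 and 10.4 CPM in WT. The lowest library labelled Nsun5-KO was only just above the highest WT library. The mean was 14.6 ± 2.06 CPM in libraries labelled Nsun5-KO and 10.02 ± 1.90 CPM in WT, a log2 fold change of 0.54 with an SE of 0.15 and a 95% interval from 0.21 to 0.88. The edgeR adjusted p was 0.316. The exact two-sided permutation p of 0.0286, unadjusted over the 5 genes tested, is the smallest that 70 labelings can give. Every gene whose groups do not overlap receives it, so for Hrh2, Hrh1 and Maob it restates the lack of overlap.

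Hrh1 (ENSMUSG00000053004, chromosome 6, 114397936 to 114483296, plus strand) had 18.4, 19.9, 20.4 and 17.1 CPM in libraries labelled Nsun5-KO and 16.6, 13.9, 11.8 and 16.9 CPM in WT. The groups did not overlap, but replicate 4 labelled Nsun5-KO and WT replicate 4 lay almost level, with 302 and 298 counts. The means were 18.9 ± 1.49 CPM in libraries labelled Nsun5-KO and 14.8 ± 2.42 CPM in WT (edgeR adjusted p = 0.409, exact permutation p = 0.0286). The log2 fold change was 0.35, with an SE of 0.13 and a 95% interval from 0.08 to 0.63.

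Hrh3 (ENSMUSG00000039059, chromosome 2, 180099465 to 180104488, minus strand), the receptor on histaminergic and other axon terminals, had 87.3, 79.89, 79.96 and 92.03 CPM in libraries labelled Nsun5-KO and 59.9, 69.5, 59.3 and 89.9 CPM in WT. WT replicate 4 lay among the libraries labelled Nsun5-KO, so the groups overlapped. The mean of 84.8 ± 5.94 CPM in libraries labelled Nsun5-KO and of 69.7 ± 14.3 CPM in WT had an exact permutation p of 0.114. Its log2 fold change was 0.28, with an SE of 0.12 and a 95% interval from 0.01 to 0.55 (edgeR adjusted p = 0.461). Leaving out WT replicate 4 gave 0.43, and leaving out WT replicates 1 and 2 gave 0.18.

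The library kit does not mark strand, and antisense genes lie within Hrh2 and Hrh3. Gm16578 inside Hrh2 had at most 4 counts and Gm17180 inside Hrh3 at most 10, so few counts were assigned to either antisense gene, and reads in the shared parts cannot be told apart by strand. No other gene of the table overlaps the span of Hdc, Hrh1, Hnmt or Maob.

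Neuronal markers were uneven. The sums of the 9-gene neuron list did not overlap between the groups, but the median log2 fold change of its genes was 0.03, and 0 were called. Snap25, a synaptic vesicle fusion protein, had 3002 ± 188 CPM in libraries labelled Nsun5-KO and 2326 ± 132 CPM in WT. It was 1 of 4 genes higher at an unadjusted p below 0.05, with Syt1, Rbfox3 and Slc17a7, beside 5.3% of all genes tested. Gad2, an enzyme of GABA synthesis, lay on the other side with 261.3 ± 77.4 CPM in libraries labelled Nsun5-KO and 353.4 ± 81.2 CPM in WT (log2 fold change -0.43). Map2 was at -0.03, and Stmn2, Tubb3 and Gad1 were at 0.02 to 0.03. Per 1000 CPM of that list, Hrh1 stood at 2.22 ± 0.153 CPM in libraries labelled Nsun5-KO and 1.98 ± 0.320 CPM in WT, and Hrh2 at 1.71 ± 0.250 CPM in libraries labelled Nsun5-KO and 1.34 ± 0.244 CPM in WT. Hrh3 stood at 9.94 ± 0.900 CPM in libraries labelled Nsun5-KO and 9.34 ± 1.98 CPM in WT. On this scale, added after the data were seen, the groups overlapped for all 3 receptors, with log2 ratios of 0.16, 0.36 and 0.09 for Hrh1, Hrh2 and Hrh3. The part of the neuronal markers in the receptor differences was not tested.

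Blood vessels also carry H1 and H2 receptors. The summed endothelial list was 357.0 to 399.8 CPM in libraries labelled Nsun5-KO and 353.1 to 397.3 CPM in WT, and the median log2 fold change was -0.01 over 9 genes. Per 1000 CPM of the endothelial list Hrh2 was at 33.2 to 42.4 CPM in libraries labelled Nsun5-KO and 21.2 to 30.9 CPM in WT, without overlap, and Hrh1 at 43.6 to 57.1 CPM in libraries labelled Nsun5-KO and 30.2 to 47.1 CPM in WT, with overlap.

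Of the breakdown genes, Maob lay below WT and the groups overlapped for Hnmt. Maob (ENSMUSG00000040147, chromosome X, 16709282 to 16817366, minus strand) had 27.5, 24.8, 27.4 and 30.01 CPM in libraries labelled Nsun5-KO and 35.8, 31.1, 30.9 and 36.1 CPM in WT. Its groups touched without overlap, with replicate 4 labelled Nsun5-KO just under WT replicate 3. The mean was 27.4 ± 2.13 CPM in libraries labelled Nsun5-KO and 33.5 ± 2.87 CPM in WT (exact permutation p = 0.0286, edgeR adjusted p = 0.353). The log2 fold change was -0.29, with an SE of 0.09 and a 95% interval from -0.48 to -0.09.

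Maob is made by astrocytes, by the ciliated ependyma of the ventricles and by histamine and serotonin neurons. The summed astrocyte list was 4319 to 4879 CPM in libraries labelled Nsun5-KO and 4000 to 4674 CPM in WT, and the median log2 fold change was -0.04 over 10 genes. The summed ependymal list was lower without overlap, at 11.4 to 22.6 CPM in libraries labelled Nsun5-KO and 26.6 to 40.1 CPM in WT, and 0 of its 7 tested genes were called. All 7 were lower at an unadjusted edgeR p below 0.05, beside 5.05% of all genes tested. WT counts alone can carry a low gene past the low-count filter, so nothing is read from this tally. Maob stood, per 1000 CPM of the astrocyte list, at 6.07 ± 0.483 CPM in libraries labelled Nsun5-KO and 7.68 ± 0.825 CPM in WT. Per 1000 CPM of the ependymal list it stood at 1635 ± 414 CPM in libraries labelled Nsun5-KO and 1014 ± 240 CPM in WT, and per 1000 CPM of the hypothalamic list at 440.2 ± 108 CPM in libraries labelled Nsun5-KO and 201.1 ± 97.7 CPM in WT. The groups overlapped on all 3 scales, which were added after the data were seen. The part of ependymal and hypothalamic tissue in the difference of Maob was not tested.

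Hnmt (ENSMUSG00000026986, chromosome 2, 24002910 to 24049394, minus strand) had 25.03, 25.98, 24.4 and 24.7 CPM in libraries labelled Nsun5-KO and 26.7, 32.3, 23.5 and 26.2 CPM in WT. The groups overlapped, and WT replicate 2 alone lay above 30. With means of 25.02 ± 0.697 CPM in libraries labelled Nsun5-KO and 27.2 ± 3.71 CPM in WT, the log2 fold change was -0.12, with an SE of 0.10 and a 95% interval from -0.34 to 0.10 (exact permutation p = 0.343, edgeR adjusted p = 0.725). It was -0.029 without WT replicate 2. Per 1000 CPM of the neuron list Hnmt stood at 2.93 ± 0.148 CPM in libraries labelled Nsun5-KO and 3.64 ± 0.540 CPM in WT, without overlap. That scale was added after the data were seen. The neuron sums alone did not overlap, at 8221 to 8786 CPM in libraries labelled Nsun5-KO and 7342 to 7589 CPM in WT. The part of Hnmt itself in this gap was not tested.

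**Figure D3:**
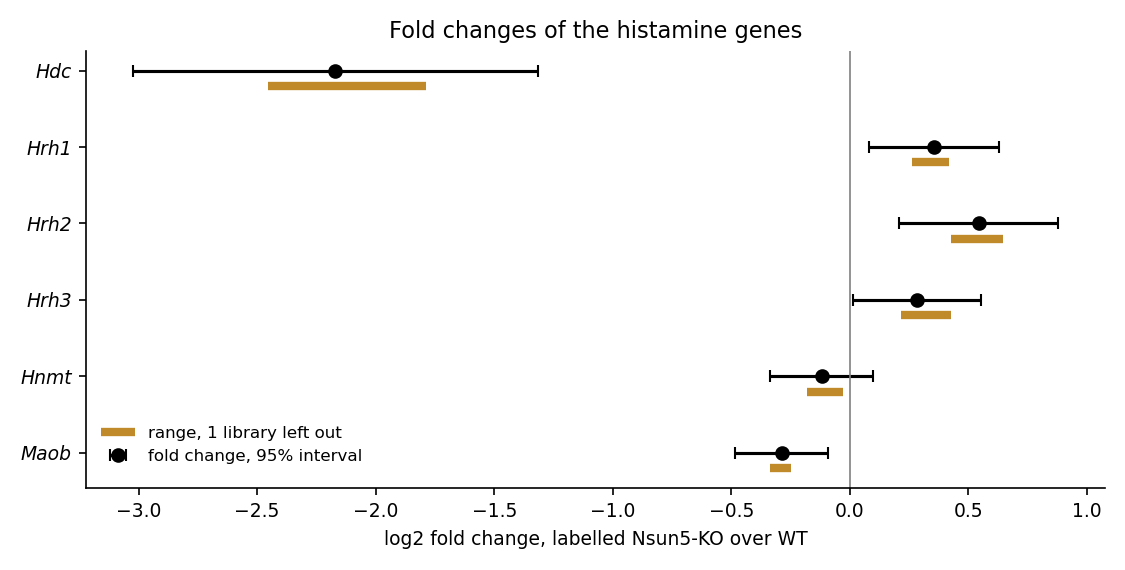
Log2 fold change of each histamine gene in libraries labelled Nsun5-KO over WT (x axis); points are the edgeR estimates over 8 libraries, thin bars the 95% intervals, and thick bars the range of estimates with each library left out in turn. Hdc stood at -2.17 and ranged from -2.45 to -1.79, the receptors lay between 0.28 and 0.54, and the interval of Hnmt held 0.

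On a per-length scale the order of the 6 genes was the same in both genotypes. In deposited FPKM (fragments scaled by gene length and by library total), Hrh3 was highest, at 26.8 ± 1.81 in libraries labelled Nsun5-KO and 21.9 ± 4.53 in WT. Hnmt followed at 14.1 ± 0.399 in libraries labelled Nsun5-KO and 15.2 ± 2.07 in WT, then Maob at 9.77 ± 0.740 FPKM in libraries labelled Nsun5-KO and 11.9 ± 1.03 FPKM in WT. Hrh1 was at 4.23 ± 0.343 FPKM in libraries labelled Nsun5-KO and 3.30 ± 0.542 FPKM in WT, and Hrh2 at 2.45 ± 0.346 FPKM in libraries labelled Nsun5-KO and 1.67 ± 0.318 FPKM in WT. Hdc was lowest, at 0.162 ± 0.0591 FPKM in libraries labelled Nsun5-KO and 0.735 ± 0.379 FPKM in WT (SD, n = 4 each).

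In the libraries labelled Nsun5-KO no neighbours in that order overlapped. In WT the lowest library of Hrh2 (1.25 FPKM, replicate 2) and the highest of Hdc (1.25 FPKM, replicate 1) met, although Hrh2 was above Hdc within each library.

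The genes most like each member were found by Pearson correlation of log2 CPM over the 8 libraries among 14949 genes with a mean of at least 1 CPM. For Hdc these were Ehd4 (r = 0.98), Papss2 (0.97), Glb1l (0.97), Nono (0.97) and Rcbtb1 (0.97), all below WT but by less than Hdc, with log2 fold changes of -0.61 to -0.17. For Hrh1 they included Rassf5 and Lsm12 (0.98 and 0.96), for Hrh2 they included Rassf3 and Ggt7 (0.99 and 0.98), and for Hrh3 they were Mrps18b, Bop1 and Dpy19l1 (0.99, 0.95 and 0.94). For Hnmt they were Hapln3, Cfap20 and Enpp4 (0.96, 0.96 and 0.95), and for Maob Irak1, Gnai2 and Snx9 (0.95, 0.95 and 0.94). These are the highest of 14949 values each, over 8 points that share libraries and genotype, and are a description. Among the members themselves, Hdc had r = 0.82 with Maob, 0.45 with Hnmt, and -0.68, -0.83 and -0.72 with Hrh1, Hrh2 and Hrh3. Hdc was chosen by its difference between genotypes, so these values in part restate the genotype differences of the other genes. Correlations within groups were not computed for these pairs.

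Other genes of histamine handling were measured from a list of 12, of which 9 passed the low-count filter. edgeR called 0 of the 9, 2 lay above and 7 below WT, and the median log2 fold change was -0.18 beside -0.01 over all genes. It was nearer 0 in other settings, at -0.080 without WT replicate 1, -0.059 without WT replicate 3, -0.034 on both FPKM scales and -0.039 with the replicate number as a block. Slc29a4, a plasma membrane transporter that takes up monoamines and histamine, was the only one of the 9 with an unadjusted p below 0.05. It had 11.8, 9.09, 16.1 and 12.8 CPM in libraries labelled Nsun5-KO and 24.0, 19.9, 16.3 and 11.7 CPM in WT, which overlapped through WT replicate 4 (log2 fold change -0.53, SE 0.23; edgeR adjusted p = 0.461), and it was at -0.17 without WT replicates 1 and 2.

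Maoa, the sister enzyme of Maob, had 40.9 ± 2.71 CPM in libraries labelled Nsun5-KO and 46.2 ± 4.10 CPM in WT (log2 fold change -0.18, edgeR adjusted p = 0.501); it was named after its values were seen. Hrh4, the H4 receptor of immune cells, had 0 counts in all 8 libraries, and Aoc1, the diamine oxidase that degrades histamine outside the brain, had at most 1 count in a library labelled Nsun5-KO and at most 2 in a WT library.

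No gene downstream of the receptors passed the test. For the H1 receptor, 6 of 7 genes of the Gq pathway lay above WT and the median log2 fold change was 0.09; 0 were called or had an unadjusted p below 0.05. Single libraries moved this median, to 0.039 without WT replicate 2, to 0.18 without WT replicate 3, and to 0.053 once replicate 3 labelled Nsun5-KO was left out. The smallest p values were those of the phospholipase C genes Plcb1, at 320.8 ± 22.0 CPM in libraries labelled Nsun5-KO and 285.8 ± 22.5 CPM in WT (log2 fold change 0.17, edgeR adjusted p = 0.485), and Plcb4, at 111.3 ± 26.1 CPM in libraries labelled Nsun5-KO and 92.9 ± 10.3 CPM in WT (0.26, edgeR adjusted p = 0.594). Plcb4 was at 0.093 once replicate 2 labelled Nsun5-KO, the highest of its group, was left out, and at 0.13 without WT replicates 1 and 2. For the H2 receptor, 5 of 7 genes lay above WT with a median of 0.10 and 0 called. Leaving out WT replicate 1, 2 or 4 gave a median of 0.051, 0.024 or 0.22 in that order. It was 0.042 once replicate 2 labelled Nsun5-KO was left out, and 0.011 when both WT replicates 1 and 2 were.

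Adenylyl cyclases, which make cyclic AMP, held the 2 smallest p values of the H2 list. Adcy2 had 164.6, 153.2, 171.2 and 142.4 CPM in libraries labelled Nsun5-KO and 125.7, 123.2, 148.4 and 138.8 CPM in WT (log2 fold change 0.24, SE 0.08; edgeR adjusted p = 0.404). Adcy9 was at 71.5 ± 6.04 CPM in libraries labelled Nsun5-KO and 60.8 ± 7.49 CPM in WT (0.23, edgeR adjusted p = 0.436). The groups overlapped for both, and their fold changes were 0.13 and 0.11 without WT replicates 1 and 2.

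For the H3 receptor, 6 of 9 genes of Gi/o signalling lay above WT, the median log2 fold change was 0.11 and 0 were called. Gnai2, an inhibitory G protein subunit, had 175.4, 167.8, 168.9 and 174.9 CPM in libraries labelled Nsun5-KO and 205.1, 187.1, 180.0 and 199.5 CPM in WT, without overlap (log2 fold change -0.17, SE 0.065; edgeR adjusted p = 0.412). The channel genes lay on the other side: Kcnj9, a subunit of G protein-gated potassium channels, had 160.2 ± 25.8 CPM in libraries labelled Nsun5-KO and 122.2 ± 24.3 CPM in WT (0.39, edgeR adjusted p = 0.437). Kcnj3, another such subunit, was at 0.23 (edgeR adjusted p = 0.477), and Cacna1a, the pore of the P/Q-type calcium channel of axon terminals, at 0.24 (edgeR adjusted p = 0.465). Without WT replicates 1 and 2, Kcnj9 was at 0.18, Cacna1a at 0.09 and Kcnj3 at 0.29.

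**Figure D4:**
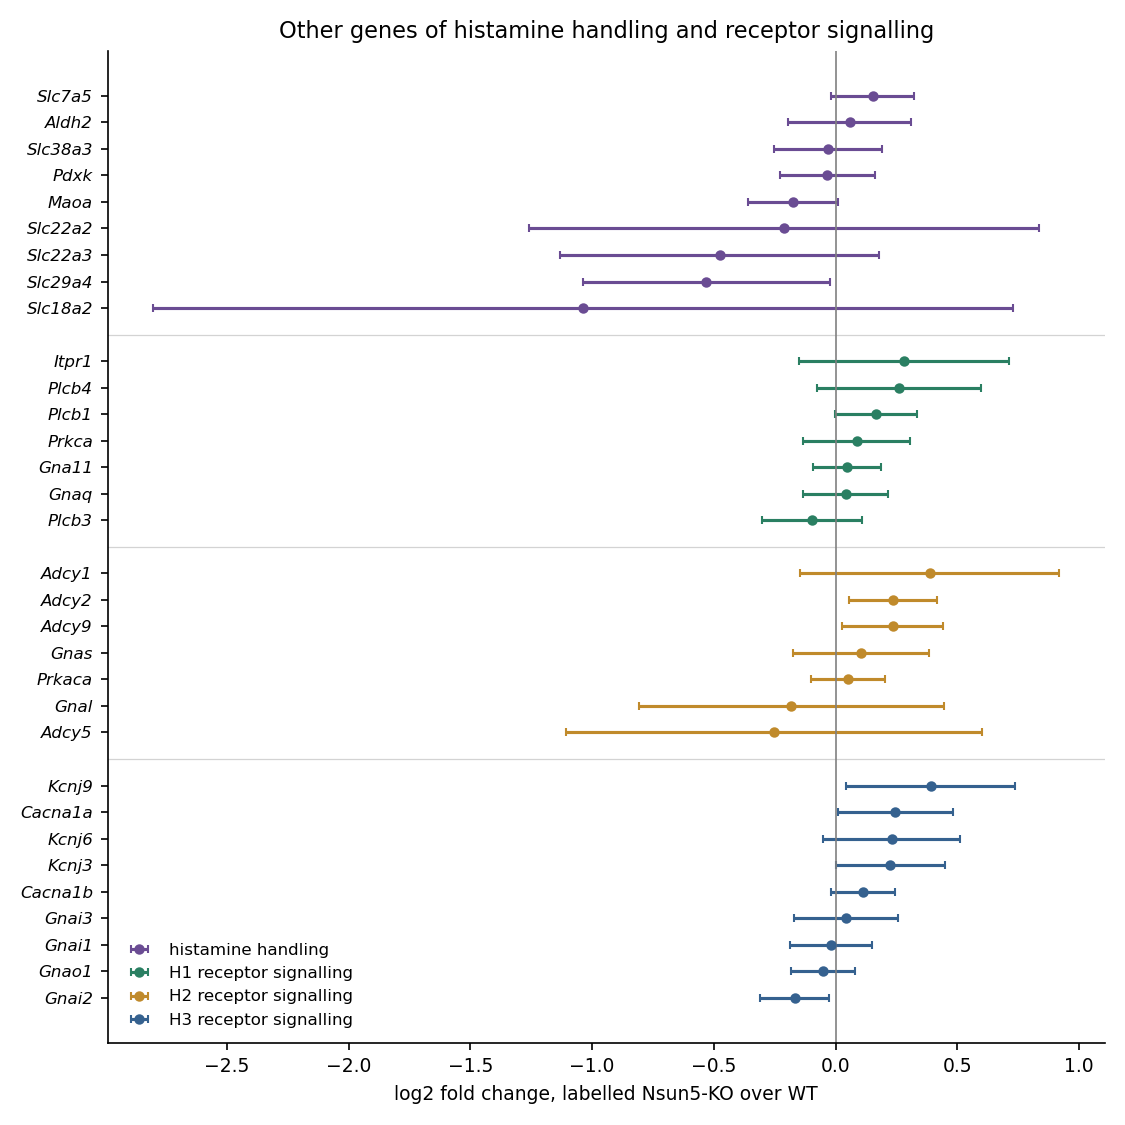
Log2 fold change in libraries labelled Nsun5-KO over WT (x axis) with 95% intervals for the tested genes of histamine handling (9 genes) and of H1 (7), H2 (7) and H3 (9) receptor signalling, from top to bottom. Slc18a2 had the widest interval, and most intervals held 0.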

How the data were processed

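Per the labels' protocols, TRIzol was used for RNA and a NEBNext Ultra kit for the libraries; that kit does not mark strand. Per the submitters' processing notes, HISAT2 2.0.5 and mm10 were used. Which counter and annotation followed was not given in the sources used here. Counts as deposited are whole, unnormalised reads per gene, per the file headers and values. The deposited FPKM equal those counts over gene length and 1 constant per library (0.981 to 1.02 times its total). Member coordinates equal those of GENCODE M21.

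The edgeR 4.0.16 quasi-likelihood test (R 4.3.3, robust, trimmed mean of M values, filterByExpr) compared genotypes over 8 libraries without covariates. P-values were adjusted by Benjamini-Hochberg over 16062 genes, with calls below 0.05. CPM use the same scaling; log2 CPM used a prior count of 2. SEs come from the F statistic. Exact permutation tests used 70 labelings for each of 5 genes, and their p-values are unadjusted. Some single-gene values in the text lie under the filter and are given as counts.

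Named genes were the 6 members, list genes with an unadjusted p below 0.05 (otherwise the 2 smallest), and the genes most correlated with a member. Some of the correlated genes are not reported here. Other genes were named after their values were seen. Members and lists were chosen with earlier results of these data known. Alternatives were DESeq2 1.42.0, limma 3.58.1 on log2(FPKM + 1) and log2(FPKM + 0.1), another scaling, other filters, the replicate number as a block, and libraries left out. The code was checked on simulated counts. The labels do not tie a library to an animal, so p-values measure the spread between these samples. No pair of libraries in a group agreed within sampling noise (chi-square per degree of freedom 7.77 to 22.3).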

Additional observations from a re-analysis of the deposited data

Results flagged for a closer look

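A library far from the other 3 of its group was flagged in 3 of 64 groups of 4 examined, where chance flags about 1 in 20. The summed H1 receptor signalling list was at 1547 CPM in replicate 2 labelled Nsun5-KO, against 1736 to 1757 CPM in the other 3 of that group. The summed list of 3 cerebellar genes was at 2.49 CPM in replicate 3 labelled Nsun5-KO, against 0.413 to 0.681 CPM in the rest of its group, and at 6.28 CPM in WT replicate 2, against 0.349 to 0.786 CPM in the rest of WT. No histamine gene was flagged in this way.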

How the results depend on the processing

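Of the 5 histamine genes other than Hdc, 0 were called under any of 16 alternatives, and 0 genes of the pathway lists were. Over all genes, DESeq2 called 94 and edgeR without the low-count filter 68, and with single libraries left out edgeR called 0 to 2. The directions of Hdc, Hrh1, Hrh2, Hrh3 and Maob held under all 16 alternatives: the log2 fold change of Hdc ranged from -2.45 to -0.55, with -0.55 on the log2(FPKM + 1) scale, which understates low genes, that of Hrh1 from 0.26 to 0.42 (adjusted p 0.271 to 0.715), of Hrh2 from 0.37 to 0.65 (0.089 to 0.667), of Hrh3 from 0.18 to 0.43 (0.181 to 0.802) and of Maob from -0.34 to -0.25 (0.197 to 0.665). Hnmt turned to 0.0077 without WT replicates 1 and 2, and Slc18a2 to 0.54 in the same setting, with a range of -1.34 to 0.061 over single libraries left out; the cause was not tested. The median of the histamine handling list was -0.034 on both FPKM scales and ranged from -0.21 to -0.059 with single libraries left out, and the tuberomammillary median ranged from -0.12 to 0.067. The count of 4 genes without overlap, Hdc included, was the same with another scaling, with FPKM, and without WT replicates 1 and 2, where 18.4% of all genes tested did not overlap.

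Same-numbered libraries did not deviate together (correlations -0.21 to 0.06), so the numbers were not taken as pairs. With the replicate number as a block, 0 genes were called, Hdc was at -2.08 and the handling median at -0.039. Low counts limit Hdc, at 12 to 28 counts in each library labelled Nsun5-KO, and several of the hypothalamic and mast cell genes.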
